A study of Homo sapiens with 16 samples.

Results

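Steroid-metabolizing enzymes were followed in spheroids of 3 prostate cancer cell lines after knockdown of MED12, which belongs to the kinase module of Mediator, the coactivator of RNA polymerase II. The 10 genes were AKR1C1, AKR1C2 and AKR1C3, UGT2B15, UGT2B17 and UGT2B11, HSD17B4 and HSD17B11, and SRD5A1 and SRD5A3. They were chosen by name from the 62703 genes of the count table, with the rise of AKR1C3 in 22Rv1 already known. That choice used the siMED12 comparison in 22Rv1, so all values of that comparison are given as a description and without a test. Of the 10 genes, 8 passed the expression filter and belonged to the 10566 genes tested. AKR1C1 and AKR1C2 did not pass, and AKR1C3 passed through its 2 siMED12 libraries of 22Rv1.

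Messenger RNA was counted by BRB-seq, a 3′ tag method in which each transcript is read at its polyadenylated end, in 16 libraries. LNCaP cells depend on androgen and are sensitive to the antiandrogen enzalutamide, 22Rv1 cells are androgen-responsive and drug-resistant, and PC3 cells are insensitive to androgen and drug alike. Cells of all 3 lines grew in RPMI with fetal bovine serum with no added androgen or drug named in the labels, and received 25 pmol of a non-targeting pool of small interfering RNAs (siCtrl) or of a pool against MED12 (siMED12). They were kept in 2D for 3 days and as spheroids for 4 days, 7 days in all. There were 3 siCtrl and 3 siMED12 libraries of LNCaP, and 3 siCtrl and 2 siMED12 libraries (replicates 1 and 3) of each of 22Rv1 and PC3. Each line is a single established line, knockdown was transient, and the labels do not say whether replicates were separate cultures. The study's methods speak of biological replicates for its experiments in general. The p-values measure the spread between these libraries.

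Androgens are made and removed inside prostate cells by opposing enzymes. AKR1C3 reduces androstenedione to testosterone, AKR1C2 and AKR1C1 inactivate dihydrotestosterone, and SRD5A1 converts testosterone and androstenedione to their 5α-reduced forms. HSD17B4 and HSD17B11 oxidize 17β-hydroxysteroids, and UGT2B15 and UGT2B17 attach glucuronic acid to dihydrotestosterone and its metabolites so that they leave the cell. The UGT2B15 and UGT2B17 genes are known to be repressed by androgen in LNCaP cells, and AKR1C1, AKR1C2 and AKR1C3 are known targets of the oxidative stress factor NRF2.

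The enzymes came from 2 gene clusters and 4 other loci (GRCh38, Gencode annotation). AKR1C1 (ENSG00000187134, chr10:4963253-4983283), AKR1C2 (ENSG00000151632, chr10:4987775-5018031) and AKR1C3 (ENSG00000196139, chr10:5035354-5107686) are neighbours, with 4491 and 17322 bases between their annotated spans. UGT2B17 (ENSG00000197888, chr4:68537173-68576413), UGT2B15 (ENSG00000196620, chr4:68646597-68670652) and UGT2B11 (ENSG00000213759, chr4:69199951-69214748) lie on one chromosome, with 70183 bases between the first pair. The remaining genes are HSD17B11 (ENSG00000198189, chr4:87336515-87391188), SRD5A3 (ENSG00000128039, chr4:55346213-55373100), HSD17B4 (ENSG00000133835, chr5:119452465-119637199) and SRD5A1 (ENSG00000145545, chr5:6633427-6674386). The promoters of 2 AKR1C and 2 UGT2B genes are shown because the AKR1C genes had their highest counts in the same group of libraries, while UGT2B15 and UGT2B11 are related genes of unlike level. Each window runs from 250 bases before to 50 bases after the RefSeq start (GRCh38.p14) and is written 5′ to 3′ on the strand of the gene. Capitals in the AKR1C windows mark the longest run found in AKR1C1, AKR1C2 and AKR1C3 alike, and capitals in the UGT2B15 window mark a FOXA match and an androgen response element motif (AGAACA).
AKR1C2 chr10:5003808-5004107 (minus strand): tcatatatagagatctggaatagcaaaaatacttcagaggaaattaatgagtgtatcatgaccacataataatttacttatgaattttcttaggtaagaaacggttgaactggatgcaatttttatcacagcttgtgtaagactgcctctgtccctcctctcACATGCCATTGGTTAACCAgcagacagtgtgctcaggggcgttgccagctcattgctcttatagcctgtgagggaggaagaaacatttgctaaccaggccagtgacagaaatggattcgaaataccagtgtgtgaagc
AKR1C3 chr10:5094164-5094463 (plus strand): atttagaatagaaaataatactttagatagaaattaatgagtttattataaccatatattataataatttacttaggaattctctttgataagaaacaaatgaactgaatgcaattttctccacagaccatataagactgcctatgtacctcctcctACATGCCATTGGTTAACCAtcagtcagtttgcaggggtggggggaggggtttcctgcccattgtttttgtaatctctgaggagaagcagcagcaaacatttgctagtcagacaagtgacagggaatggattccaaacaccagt
UGT2B15 chr4:68670603-68670902 (minus strand): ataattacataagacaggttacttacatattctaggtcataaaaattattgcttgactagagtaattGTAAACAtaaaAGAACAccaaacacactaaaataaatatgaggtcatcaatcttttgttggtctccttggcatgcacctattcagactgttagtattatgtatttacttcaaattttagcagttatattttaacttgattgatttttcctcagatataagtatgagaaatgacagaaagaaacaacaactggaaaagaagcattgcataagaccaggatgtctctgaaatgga
UGT2B11 chr4:69214699-69214998 (minus strand): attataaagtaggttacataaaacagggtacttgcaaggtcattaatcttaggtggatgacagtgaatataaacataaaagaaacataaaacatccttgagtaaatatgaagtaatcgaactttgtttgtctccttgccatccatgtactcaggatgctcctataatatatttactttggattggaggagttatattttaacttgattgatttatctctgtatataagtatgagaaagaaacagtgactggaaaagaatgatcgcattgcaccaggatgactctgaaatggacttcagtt

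The promoter windows of AKR1C1 and AKR1C2 were identical at 98.6% of 292 aligned bases, and that of AKR1C3 matched them at 79.5% and 80.6%. The 19 bases in capitals began 93 bases before the start of AKR1C3, 88 before that of AKR1C2 and 84 before that of AKR1C1, and hold the reverse of a CCAAT box (CCAAT, searched on both strands), a motif found in 34.6% of 35116 promoter windows of that length. The antioxidant response element core bound by NRF2 (TGACNNNGC, 13.3% of windows) and the AP-1 site (TGANTCA, 7.71%) had no match in the 3 AKR1C windows. UGT2B15 held the FOXA motif (TGTTTAC, 3.42% of windows) 183 bases before its start on the reverse strand, and AGAACA, a part of the androgen response element (14.8%), 172 bases before it. The UGT2B11 window was 79.7% identical to that of UGT2B15 and held neither. These matches describe letters and not binding.

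Library totals ran from 479118 to 993807 counts, so that 1 count stood for a level of 1.05 to 2.07 CPM, the count scaled to a common library size with edgeR's TMM factors. A count of 0 in a library allows up to 3 counts, which counting error alone sets. MED12 itself had 5 to 22 counts per library. Its mean level was 11.5 CPM in siCtrl and 8.004 in siMED12 of LNCaP, 19.8 and 8.20 in 22Rv1, and 18.5 and 15.2 in PC3. At these low counts the edgeR test did not call it in LNCaP (adjusted p = 0.878) or PC3 (adjusted p = 0.987). The study itself reports the knockdown in spheroids as highly efficient. The luminal prostate marker list summed to 3510 to 6226 counts in LNCaP libraries, 528 to 703 in 22Rv1 and 69 to 122 in PC3, and the PC3 marker list to 1134 to 2376 counts in PC3 and at most 205 in the other lines. Stromal, endothelial and blood cell markers summed to 0 to 25 counts in LNCaP and 22Rv1 libraries and 29 to 85 in PC3. Genes restricted to one line measured transcripts of other lines in each library. In 22Rv1 siMED12 replicate 3 the genes restricted to PC3 stood at 5.69% of their PC3 level, and at 0.766% to 1.25% in the other 22Rv1 libraries. In PC3 siMED12 replicate 3 the genes restricted to LNCaP stood at 4.24% of their LNCaP level, from 8 counts of 5 genes. All these genes were picked by low siCtrl levels in the other lines, which holds siCtrl shares low but not siMED12 shares.

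AKR1C3 was counted in 22Rv1 and almost nowhere else, and was about 9-fold higher after siMED12. The 3 siCtrl libraries of 22Rv1 held 5, 2 and 2 counts of AKR1C3, and the siMED12 libraries 46 and 22. In CPM these were 6.51, 3.34 and 2.57 against 48.8 and 28.2, and both siMED12 libraries lay above all siCtrl libraries. The means were 4.14 ± 2.09 CPM (SD, n = 3) and 38.5 ± 14.5 CPM (SD, n = 2). The fitted log2 fold change was 3.18 (SE 0.44), and the pooled counts, 68 against 9, gave a rate ratio of 9.41 with a 95% interval of 4.68 to 21.5 that covers counting error only.

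The neighbouring genes were also higher, with fewer counts. AKR1C2 had 6, 1 and 3 counts in siCtrl and 18 and 7 in siMED12, a rate ratio of 3.11 (95% interval 1.44 to 7.27), and its lower siMED12 library, at 8.98 CPM, lay just above its highest siCtrl library, at 7.81 CPM. AKR1C1 had 4, 1 and 2 counts in siCtrl and 4 and 10 in siMED12, a rate ratio of 2.49 (0.941 to 7.29), and its groups overlapped. AKR1C1 was highest in siMED12 replicate 3 while AKR1C2 and AKR1C3 were highest in replicate 1.

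The AKR1C transcripts resemble each other closely, which bears on how 3′ tags are shared out. Of the 60-base stretches in the last 500 bases of the annotated transcript, 46.3% of those of AKR1C2 also occur in AKR1C1, and 25.4% of those of AKR1C3 occur in another AKR1C gene. How reads matching several genes were handled is not given in the sources used here, so the split among the 3 genes is uncertain. Their sum does not depend on that split among them, but would miss reads that were discarded or given to AKR1C4, which shares stretches with AKR1C3. AKR1C4 had 0 counts in siCtrl and 4 in siMED12 of 22Rv1. The sum of the 3 genes was 15, 4 and 7 counts in siCtrl and 68 and 39 in siMED12 of 22Rv1, and its fitted log2 fold change was 2.34 (SE 0.33). AKR1C3 made up 34.6% of the summed counts in siCtrl (95% exact interval 17.2% to 55.7%) and 63.6% in siMED12 (53.7% to 72.6%). These intervals are of pooled counts and cover counting error only. By library the share was 33.3%, 50% and 28.6% in siCtrl and 67.6% and 56.4% in siMED12. The rise of AKR1C3 was known when the genes were chosen, so nothing is read from its share.

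**Figure D1:**
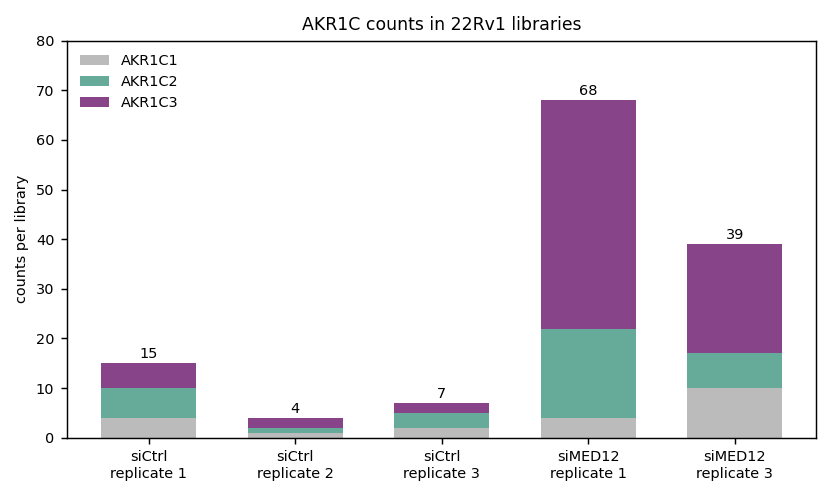
Counts of AKR1C1, AKR1C2 and AKR1C3 stacked for each 22Rv1 library (vertical axis, counts per library, summed count above each bar). The siMED12 bars reach 68 and 39 counts and the siCtrl bars 4 to 15, and AKR1C3 is the largest segment in both siMED12 libraries.

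Replicate 3 of 22Rv1 siMED12 was the 22Rv1 library with the highest level of transcripts restricted to PC3. The PC3 marker list summed to 147 CPM in siMED12 replicate 1 and 263 CPM in replicate 3 of 22Rv1, against 144 to 176 CPM in siCtrl, and the luminal marker list to 745 and 762 CPM, against 798 to 882 CPM in siCtrl. PC3 libraries held 0 or 1 count of AKR1C3 and at most 2 counts of the AKR1C genes together. With the share of the other lines subtracted, as an alternative setting of the fit, the log2 fold change of AKR1C3 in 22Rv1 was 3.22 (SE 0.44). The part of the marker shifts and of the transcripts restricted to PC3 in the 22Rv1 values was not tested. In LNCaP, AKR1C3 had 0 counts in the 3 siCtrl libraries and 1, 0 and 1 in the siMED12 libraries. In PC3 it had 0 counts in siCtrl and 1 in each siMED12 library. AKR1C1 and AKR1C2 had at most 1 count in any LNCaP or PC3 library. No fold is given in LNCaP or PC3, where both groups lay under the limit of 3 counts, and a change of these genes was not detectable at this depth.

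UGT2B17 and UGT2B15 gave most of the counts of the 3 UGT2B genes in LNCaP (62.7% and 33.3% in siCtrl), and UGT2B15 gave 93.9% in 22Rv1. In LNCaP, UGT2B15 stood at 69.6, 84.5 and 124 CPM in siCtrl replicates 1, 2 and 3 and at 36.4, 33.4 and 88.5 CPM in siMED12 replicates 1, 2 and 3. Every siMED12 library was below the siCtrl library of its own number, by 47.7%, 60.5% and 28.6%, but the groups overlapped because siMED12 replicate 3 exceeded siCtrl replicates 1 and 2. The log2 fold change was −0.81 (SE 0.28), with an unadjusted p of 0.00618 and an adjusted p of 0.357 in the edgeR test over all 10566 genes. Deviations from the group means in LNCaP libraries of 1 number correlated at 0.132 to 0.177. Correlations between libraries of unlike number were not computed, so these values do not show that the numbers pair the libraries. With the replicate number as a block, the log2 fold change was −0.81 (SE 0.19) and passed the threshold, with an edgeR adjusted p of 0.0198. Without siMED12 replicate 3 it was −1.44 (edgeR adjusted p = 0.0151), and over the other libraries left out in turn it lay between −0.95 and −0.51 with adjusted p-values from 0.281 to 0.986.

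UGT2B17 stood at 171, 159 and 208 CPM in LNCaP siCtrl and at 106, 140 and 177 CPM in siMED12. Each siMED12 library was again below the siCtrl library of its number, by 37.7%, 11.9% and 14.8%. At −0.34 on the log2 scale (SE 0.19), it did not pass the threshold without the block (edgeR adjusted p = 0.728) or with it (edgeR adjusted p = 0.468). UGT2B11, a relative whose main substrates are less certain, had 4 to 13 counts per siCtrl library and 3 to 9 per siMED12 library, and its value fell short of the threshold (log2 fold change −0.57, SE 0.50, with an edgeR adjusted p of 0.876). The 3 genes summed to 255, 249 and 346 CPM in siCtrl and 147, 185 and 272 CPM in siMED12, which differed by −0.49 on the log2 scale (SE 0.19) at an edgeR adjusted p of 0.527. Each siMED12 sum was below the siCtrl sum of its number, and with the replicate number as a block the difference was −0.50 (SE 0.14, edgeR adjusted p = 0.0808). In the same libraries the summed luminal markers, KLK2 among them, stood at 6205 to 6950 CPM in siCtrl and 4684 to 5485 CPM in siMED12, groups that did not overlap, with 0 of the 8 markers at 0 in any library. The stromal, endothelial and blood cell markers stood at 23.2 to 32.9 CPM in siCtrl and 16.8 to 19.5 CPM in siMED12, with 7 to 9 of the 11 at 0. The part of these shifts in the UGT2B values was not tested. A transcript level in bulk spheroids does not separate fewer cells with the transcript from less of it per cell.

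**Figure D2:**
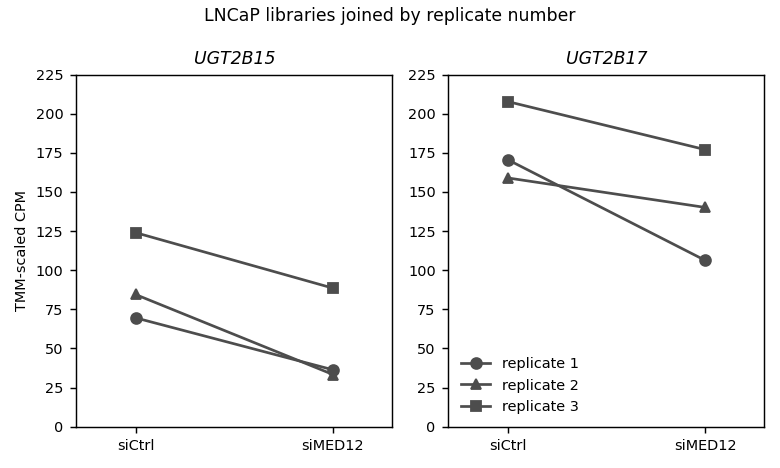
Level of UGT2B15 (left) and UGT2B17 (right) in LNCaP siCtrl and siMED12 libraries (vertical axis, TMM-scaled CPM), with lines joining libraries of the same replicate number. All 6 lines slope down, from 69.6, 84.5 and 124 to 36.4, 33.4 and 88.5 CPM for UGT2B15 and from 171, 159 and 208 to 106, 140 and 177 CPM for UGT2B17.

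In 22Rv1, where the values are again only described, UGT2B15 stood at 148, 139 and 82.1 CPM in siCtrl and at 159 and 132 CPM in siMED12, a log2 fold change of 0.26 (SE 0.26) with overlapping groups. It was 0.016 without siCtrl replicate 3 and 0.097 without siMED12 replicate 1. UGT2B17 had 1, 3 and 1 counts in 22Rv1 siCtrl and 1 and 5 in siMED12. UGT2B11 had 10 counts against 12, a rate ratio of 1.04 (95% interval 0.402 to 2.62). In PC3 the 3 genes together had 3, 1 and 1 counts in siCtrl and 0 and 4 in siMED12. Of those last 4 counts, 3 were UGT2B17, in siMED12 replicate 3. Among the PC3 libraries it had the highest level of transcripts restricted to LNCaP, 4.24% from 8 counts. The others had 0.799% to 2.14%, from 3 to 6 counts. The part of those transcripts in the UGT2B17 counts was not tested.

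The 17β-hydroxysteroid dehydrogenases did not pass the edgeR test after siMED12 in LNCaP or PC3. HSD17B4, a peroxisomal enzyme that also serves in fatty acid oxidation, stood at 172, 192 and 175 CPM in LNCaP siCtrl and 152, 172 and 192 CPM in siMED12 (log2 fold change −0.06, SE 0.14, 95% interval −0.35 to 0.23, edgeR adjusted p = 0.982). In PC3 it stood at 42.6, 58.9 and 46.2 CPM against 47.5 and 62.2 CPM (log2 fold change 0.11, SE 0.24, 95% interval −0.38 to 0.59, edgeR adjusted p = 0.991). HSD17B11, a lipid droplet enzyme, had 1 to 7 counts in LNCaP siCtrl libraries and 6 to 8 in siMED12 libraries. In CPM, replicates 1, 2 and 3 stood at 1.66, 10.0 and 5.30 in siCtrl and at 8.39, 10.7 and 8.05 in siMED12, each siMED12 library above the siCtrl library of its number, with overlapping groups (log2 fold change 0.62, SE 0.58, 95% interval −0.57 to 1.81, edgeR adjusted p = 0.878). It stood at 27.1, 17.9 and 17.3 CPM in PC3 siCtrl and at 11.9 and 29.0 CPM in siMED12, values that spread on both sides of siCtrl (log2 fold change −0.14, SE 0.44), with an edgeR adjusted p of 0.998.

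In 22Rv1, where the values are only described, the dehydrogenases had log2 fold changes of unlike sign. Groups that did not overlap were found there for 26.6% of all tested genes. HSD17B11 stood at 135, 182 and 237 CPM in siCtrl and at 116 and 133 CPM in siMED12, both below every siCtrl library, with a log2 fold change of −0.58 (SE 0.21). The gap was narrow, 133 against 135 CPM, and with each library left out in turn the value ran from −0.77 (without siCtrl replicate 1) to −0.35 (without siCtrl replicate 3). HSD17B4 stood at 92.4, 95.3 and 104 CPM in siCtrl and at 122 and 110 CPM in siMED12, both above every siCtrl library. Its log2 fold change was 0.26 (SE 0.18, 95% interval −0.10 to 0.62), and 0.17 without siMED12 replicate 1.

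The log2 fold changes of the 5α-reductase genes in 22Rv1 were also of unlike sign, again as a description only. SRD5A1, which acts on androgens, stood at 36.4, 35.1 and 60.3 CPM in siCtrl and at 27.6 and 29.5 CPM in siMED12, both below every siCtrl library (log2 fold change −0.64, SE 0.30). Without siCtrl replicate 3, its highest library, the value was −0.34, and without another library it reached −0.78. SRD5A3, better known as the polyprenol reductase of protein glycosylation, stood at 63.8, 63.5 and 55.2 CPM in siCtrl and at 86.9 and 68.0 CPM in siMED12, both above. Its log2 fold change was 0.36 (SE 0.22, 95% interval −0.08 to 0.80). Leaving out siMED12 replicate 1 gave 0.15, and leaving out siMED12 replicate 3 gave 0.52. SRD5A1 made up 42.5% of the summed counts of both genes in siCtrl (95% exact interval 35.9% to 49.2%) and 26.6% in siMED12 (20.4% to 33.6%). In LNCaP the share of SRD5A1 was 22.2% (17.5% to 27.6%) in siCtrl and 23.0% (18.2% to 28.3%) in siMED12, and in PC3 it was 13.1% (8.59% to 18.9%) and 11.9% (5.86% to 20.8%). These intervals cover counting error only. SRD5A1 had log2 fold changes of 0.00 (SE 0.29) in LNCaP and −0.30 (SE 0.58) in PC3, and SRD5A3 of −0.04 (SE 0.18) and −0.15 (SE 0.24), none of which passed the edgeR test (adjusted p from 0.980 to 1).

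**Figure D3:**
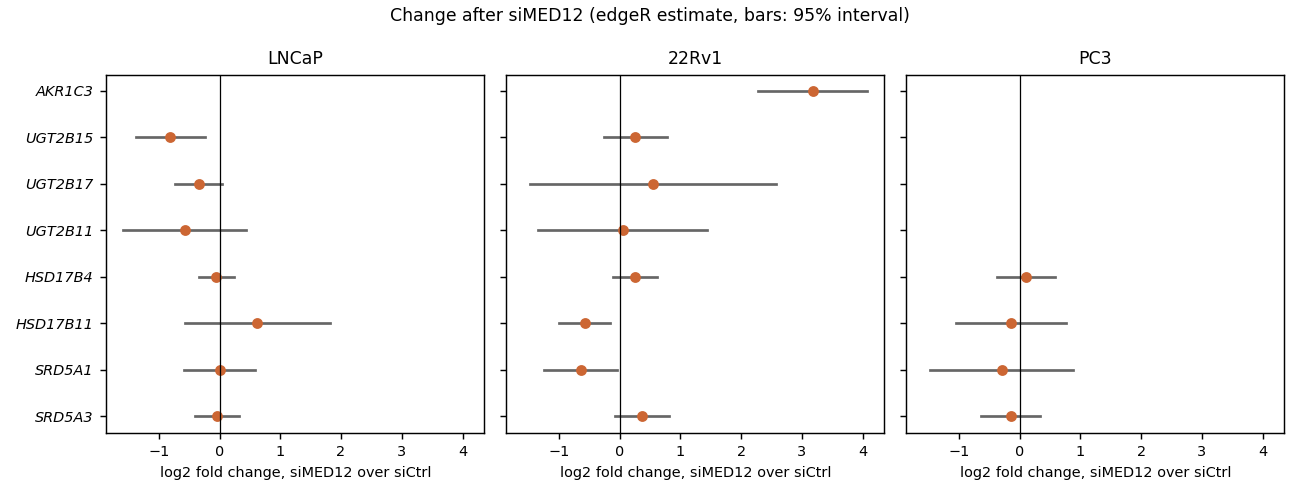
Fitted log2 fold change of siMED12 over siCtrl for each tested enzyme in LNCaP, 22Rv1 and PC3 (horizontal axis, log2 scale; points, edgeR estimate; bars, 95% interval). AKR1C3 in 22Rv1 lies at 3.18 and the other points between −0.81 and 0.62. Genes with at most 3 counts in every library of both groups are not drawn, and the 22Rv1 values are not tested.

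By count, 0 of the 8 tested enzymes passed the threshold after siMED12 in LNCaP, where 0.416% of all tested genes did (44 of 10566), with 1 enzyme at an unadjusted p under 0.05 (UGT2B15). In PC3, 0 of 8 passed, where 0% of all tested genes did (0 of 10566, with 527 at an unadjusted p under 0.05, 0 of them among the enzymes). Over all genes in PC3, limma called 1 and DESeq2 0, and both tools called 0 enzymes in either line. In 22Rv1, 5 of the 8 had groups that did not overlap, AKR1C3, HSD17B4 and SRD5A3 above and HSD17B11 and SRD5A1 below, where 26.6% of all tested genes had such groups. That comparison was used to choose the genes, and nothing is read from its count. The share was 0 of 8 in LNCaP, against 12.6% of tested genes, and 1 of 8 in PC3, against 20.7%, the latter being AKR1C3 with 1 count against 0. The median log2 fold change of the 8 genes was −0.05 in LNCaP, 0.26 in 22Rv1 and −0.14 in PC3, and that of all tested genes −0.00, 0.01 and −0.04. AKR1C3 had 0 or 1 count per library in LNCaP and PC3, too few to pass a test there, and its fitted values enter these medians. The difference between the siMED12 effects in LNCaP and PC3 did not pass the edgeR test for any of the other 7 enzymes (adjusted p from 0.961 to 1.00).

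The siCtrl libraries show which line expresses which enzyme, and these groups also serve as controls of the siMED12 comparisons. AKR1C3 is left out of these counts, because its siCtrl libraries alone would not have passed the filter. Between 22Rv1 and LNCaP, 5 of the other 7 tested enzymes passed the edgeR test, 2 higher and 3 lower in 22Rv1, where 43.2% of all tested genes passed. Between PC3 and LNCaP 7 of 7 passed, 1 higher and 6 lower in PC3, where 54.7% of all tested genes passed. Between PC3 and 22Rv1 5 of 7 passed, each lower in PC3, where 54.9% of all tested genes passed.

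**Figure D4:**
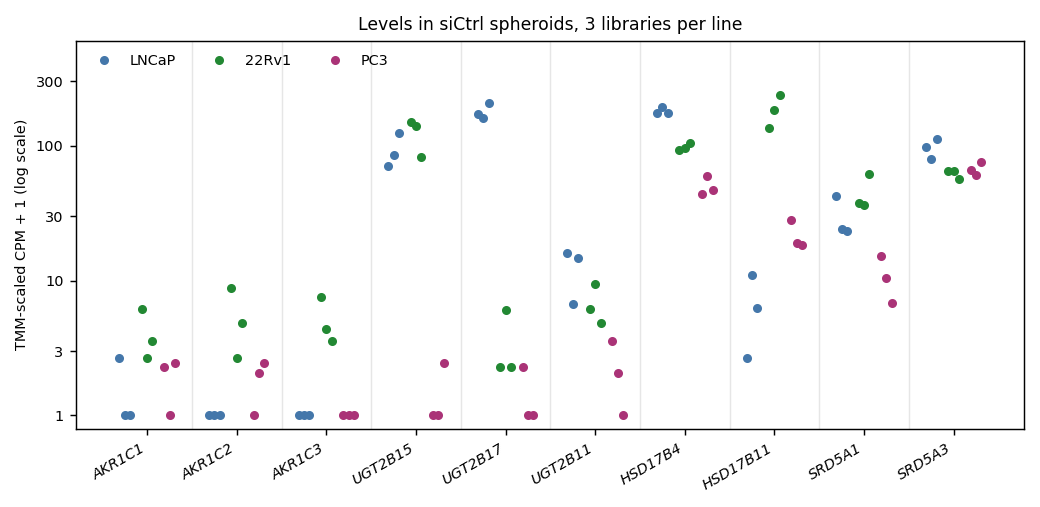
Level of each enzyme in the 3 siCtrl libraries of each line (vertical axis, TMM-scaled CPM plus 1 on a log scale; one point per library). UGT2B17 separates LNCaP, at 159 to 208 CPM, from 22Rv1, at 1.28 to 5.01 CPM, while UGT2B15 overlaps between them, and HSD17B11 is highest in 22Rv1.

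UGT2B17 was the enzyme that most separated LNCaP from 22Rv1. It had 103, 111 and 196 counts in LNCaP siCtrl and 1, 3 and 1 in 22Rv1, 179 ± 25.5 CPM (SD, n = 3) against 2.53 ± 2.15 CPM (SD, n = 3). The log2 difference was −6.18 (SE 0.40, edgeR adjusted p = 6.1e-15). In these 22Rv1 libraries the genes restricted to LNCaP stood at 0.419% to 0.650% of their LNCaP level, from 1 or 2 counts per library. With that share subtracted the log2 difference was −6.85. UGT2B15, by contrast, was at 92.7 ± 28.1 CPM in LNCaP and 123 ± 35.8 CPM in 22Rv1 (n = 3 each), with a log2 difference of 0.36 (95% interval −0.15 to 0.87, edgeR adjusted p = 0.254). UGT2B15 accordingly made up 33.3% of the summed UGT2B counts in LNCaP (95% exact interval 29.7% to 37.1%) and 93.9% in 22Rv1 (90.4% to 96.4%). The sum of the 3 genes was lower in 22Rv1 than in LNCaP, with a log2 difference of −1.13 (SE 0.21, edgeR adjusted p = 3.9e-05).

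PC3 had almost no UGT2B transcripts. Its 3 siCtrl libraries together held 1 count of UGT2B15, 1 of UGT2B17 and 3 of UGT2B11, against 218, 410 and 26 counts in LNCaP. The rate ratios of PC3 to LNCaP were 0.00426 for UGT2B15 (95% counting interval 1.1e-04 to 0.0240), 0.00226 for UGT2B17 (5.7e-05 to 0.0127) and 0.107 for UGT2B11 (0.0208 to 0.350), and the edgeR adjusted p-values were 3.3e-11, 2.8e-16 and 5.97e-04. UGT2B11 was at 11.5 ± 5.01 CPM in LNCaP and 5.80 ± 2.31 CPM in 22Rv1 (edgeR adjusted p = 0.131). The difference of UGT2B11 between PC3 and 22Rv1, 3 counts against 12, had an edgeR adjusted p of 0.0469 and did not pass under DESeq2 (adjusted p = 0.0909), without the filter (edgeR adjusted p = 0.0508) or in either fit without 1 library in which it could be tested (22Rv1 siCtrl replicate 2 or PC3 siCtrl replicate 3 left out, edgeR adjusted p of 0.145 and 0.132).

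HSD17B11 followed another order, highest in 22Rv1, then PC3, then LNCaP. Its levels were 185 ± 51.1 CPM in 22Rv1, 20.8 ± 5.48 CPM in PC3 and 5.66 ± 4.20 CPM in LNCaP (SD, n = 3 each). The log2 difference was 4.96 (SE 0.32, edgeR adjusted p = 5.1e-14) between 22Rv1 and LNCaP, 1.81 (SE 0.48, edgeR adjusted p = 0.00206) between PC3 and LNCaP, and −3.15 (SE 0.25, edgeR adjusted p = 2.3e-12) between PC3 and 22Rv1. The LNCaP libraries held 1, 7 and 5 counts, and in them the genes restricted to 22Rv1 stood at 0.700% to 1.01% of their 22Rv1 level. With that share subtracted the log2 difference between 22Rv1 and LNCaP was 5.47. HSD17B4 ran the other way between LNCaP and 22Rv1, at 180 ± 10.6 CPM in LNCaP, 97.2 ± 6.01 CPM in 22Rv1 and 49.2 ± 8.55 CPM in PC3. Each step passed the edgeR test, with log2 differences of −0.88 (SE 0.15) from LNCaP to 22Rv1 and −0.96 (SE 0.18) from 22Rv1 to PC3 and adjusted p-values of 2.3e-05 and 4.4e-05.

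SRD5A1 was at 43.9 ± 14.2 CPM in 22Rv1, 28.9 ± 10.9 CPM in LNCaP and 9.81 ± 4.22 CPM in PC3. Its level was lowest in PC3, with log2 differences of −1.47 from LNCaP (SE 0.37, edgeR adjusted p = 0.00109) and −2.15 from 22Rv1 (SE 0.34, edgeR adjusted p = 2.3e-06). The difference of 0.68 (SE 0.28) between 22Rv1 and LNCaP had an edgeR adjusted p of 0.0470 with overlapping groups, and did not pass with DESeq2 (adjusted p = 0.183) or limma (adjusted p = 0.142), or without LNCaP siCtrl replicate 2, LNCaP siCtrl replicate 3 or 22Rv1 siCtrl replicate 3 (edgeR adjusted p of 0.142, 0.230 and 0.356). It also failed in 3 other edgeR settings (no filter, legacy test, counts of other lines subtracted), with adjusted p-values of 0.0539 to 0.0650. SRD5A3 was at 95.03 ± 15.8 CPM in LNCaP, 66.5 ± 7.80 CPM in PC3 and 60.8 ± 4.89 CPM in 22Rv1, with log2 differences from LNCaP of −0.54 (SE 0.19, edgeR adjusted p = 0.0159) for PC3 and −0.66 (SE 0.19, edgeR adjusted p = 0.00644) for 22Rv1. The SRD5A3 levels of PC3 and 22Rv1 did not differ beyond their spread (log2 difference 0.12, 95% interval −0.29 to 0.54, edgeR adjusted p = 0.635). Without LNCaP siCtrl replicate 3 neither difference of SRD5A3 passed (edgeR adjusted p of 0.0978 for PC3 and 0.0721 for 22Rv1), and that between PC3 and LNCaP was also lost without PC3 siCtrl replicate 2 (edgeR adjusted p = 0.0789) and under DESeq2 (adjusted p = 0.0821).

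The AKR1C genes had 26 counts in the siCtrl libraries of 22Rv1, 4 in those of PC3 and 1 in those of LNCaP. AKR1C3 gave 9 of the 26, with 0 in the other lines, and has no test here, since it passed the filter only through siMED12. No fold is given, since 0 counts allow 3 per library.

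**Figure D5:**
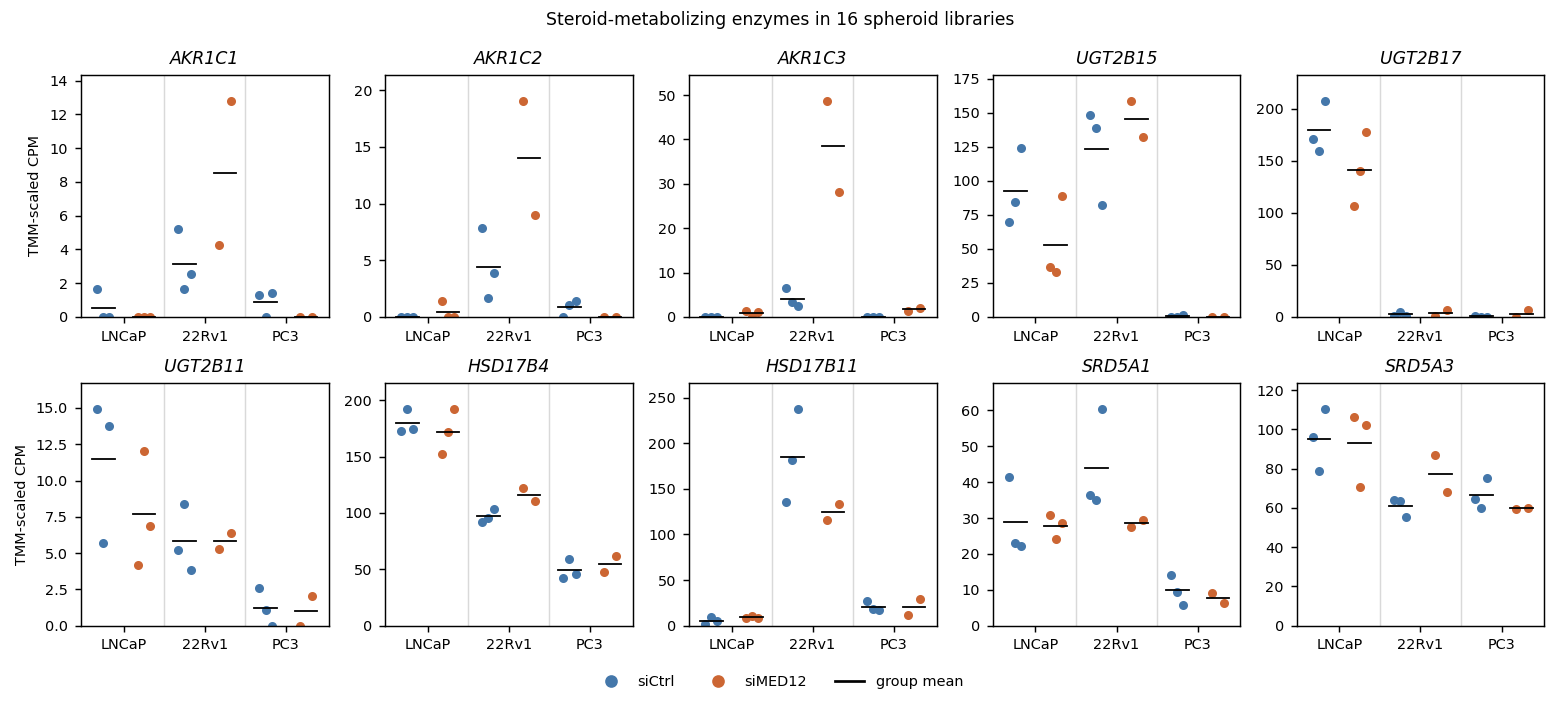
Level of each of the 10 enzymes in all 16 libraries (vertical axes, TMM-scaled CPM, each from 0; blue, siCtrl; orange, siMED12; black bar, group mean). AKR1C3 stands at 28.2 and 48.8 CPM in 22Rv1 siMED12 and at most at 6.51 CPM elsewhere, UGT2B15 is lower in LNCaP siMED12 with 1 high library, and UGT2B17 is at 106 to 208 CPM in LNCaP and at most at 6.41 CPM elsewhere.

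The other genes of steroid metabolism, a list of 68, gave 25 that were tested. After siMED12, 0 rose and 1 fell in LNCaP, where 0.416% of all tested genes passed, and 0 rose and 0 fell in PC3, where 0% did. The gene that fell was HSD11B2, which inactivates cortisol and also oxidizes 11-oxygenated androgens, at 163 ± 18.5 CPM in siCtrl and 94.3 ± 24.0 CPM in siMED12 (n = 3 each, log2 fold change −0.79, SE 0.17, edgeR adjusted p = 0.0192). Between siCtrl groups, 6 were higher and 10 lower in 22Rv1 than in LNCaP (43.2% of all tested genes passed), 10 higher and 8 lower in PC3 than in LNCaP (54.7%), and 13 higher and 5 lower in PC3 than in 22Rv1 (54.9%).

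The genes of that list named next had the 3 largest differences of each sign in a pair of siCtrl groups. UGDH makes the glucuronic acid donor that UGT2B enzymes use, and was at 86.3 ± 25.3 CPM in 22Rv1, 40.6 ± 0.716 CPM in LNCaP and 37.9 ± 11.4 CPM in PC3 (log2 difference 1.10 from LNCaP to 22Rv1, edgeR adjusted p = 4.1e-04, and −1.23 from 22Rv1 to PC3, edgeR adjusted p = 7.1e-05). PAPSS1, which makes the sulfate donor, was at 239 CPM in 22Rv1 and 60.5 CPM in PC3 (edgeR adjusted p = 5.7e-11). Its relative PAPSS2 was at 13.8 CPM in PC3, 3.26 CPM in 22Rv1 and 0 in LNCaP, and the steroid sulfotransferase SULT2B1 at 7.90 CPM in LNCaP and 0 in 22Rv1.

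CYB5A, which aids the lyase step of androgen synthesis, was at 1167 CPM in LNCaP, 293 CPM in 22Rv1 and 269 CPM in PC3, and FDXR, which serves mitochondrial P450 enzymes, at 49.2 CPM in LNCaP and 12.4 CPM in 22Rv1. HSD17B12 was at 31.1 CPM in 22Rv1 and 12.9 CPM in LNCaP (edgeR adjusted p = 0.00140), and HSD17B8 at 49.0 CPM in LNCaP and 14.9 CPM in PC3 (edgeR adjusted p = 1.2e-05). HSD11B2 was lowest in PC3, at 10.1 CPM against 163 in LNCaP and 42.3 in 22Rv1. CYP27A1, at 16.3 CPM in PC3, had 0 counts in the siCtrl libraries of LNCaP and 22Rv1. CYP7B1 was at 10.9 CPM in PC3 and 0 in 22Rv1, AKR1B10 at 41.0 CPM in PC3 and 0.428 CPM in 22Rv1, and AKR1B1 at 12.4 CPM in PC3 and 0 in LNCaP. Not called were CYB5A between 22Rv1 and PC3, UGDH between LNCaP and PC3, and CYP27A1 between LNCaP and 22Rv1. The other pairs of lines set side by side for these genes passed the edgeR test.

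Other genes known to answer to NRF2 were counted beside AKR1C3. Of the 22 listed, 19 were tested, and after siMED12 0 rose and 0 fell in LNCaP, where 0.416% of all tested genes passed, and in PC3, where 0% did. In 22Rv1, given without a test, their median log2 fold change was −0.04, against 0.01 for all tested genes, and 9 of 19 had a positive value. NQO1, a defining NRF2 target, was at 21.5 ± 6.28 CPM in siCtrl and 21.4 ± 7.80 CPM in siMED12 of 22Rv1. Between siCtrl groups the list had 3 higher and 8 lower in 22Rv1 than in LNCaP (43.2% of all tested genes passed), 10 higher and 3 lower in PC3 than in LNCaP (54.7%), and 11 higher and 4 lower in PC3 than in 22Rv1 (54.9%).

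Androgen-induced genes were counted because UGT2B15 and UGT2B17 are repressed by androgen. Of 19 listed, 17 were tested, and 0 rose and 1 fell after siMED12 in LNCaP, where 0.416% of all tested genes passed. That gene was KLK2, a kallikrein, at 1966 ± 298 CPM in siCtrl and 1056 ± 322 CPM in siMED12 (n = 3 each, log2 fold change −0.89, SE 0.18, edgeR adjusted p = 0.0113). In PC3 0 rose and 0 fell, and in 22Rv1 the median log2 fold change was −0.37, against 0.01 for all tested genes, with 5 of 17 positive.

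The genes whose levels most resembled AKR1C3 and UGT2B15 over the 16 libraries were listed among the 6714 genes that averaged 20 CPM or more. For AKR1C3 they were MPPE1 (Pearson r = 0.917), CPE (0.888), CD63 (0.888), TCTN1 (0.882) and the ribosomal pseudogene RPL32P16 (0.877). For UGT2B15 they were RPL15 (0.988), SNHG29 (0.988), ENSG00000212664 (0.984), ENSG00000226084 (0.981) and the ribosomal pseudogene RPL23AP42 (0.981). The 16 libraries share 3 cell lines. AKR1C3 was highest in the 2 siMED12 libraries of 22Rv1, so genes picked by this correlation tend to be higher there. The siMED12 log2 fold changes of the 5 genes in 22Rv1, 0.44 to 6.56, follow from that choice and were not tested.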

How the data were processed

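Gene expression was measured in 16 BRB-seq libraries of 3 lines and 2 treatments, grouped by their labels. The deposited count table holds raw counts, which the authors made with STARsolo on GRCh38.p13. Whether molecular identifiers were collapsed is not given in the sources used here. The deposited expression table holds log2 CPM that the authors made with edgeR, and recomputing it from the counts with a prior count of 2 matched to within 5e-14. Totals per library were 479118 to 993807 counts (median 764494).

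Counts were fitted with edgeR 4.0.16 under R 4.3.3 (glmQLFit and glmQLFTest, the quasi-likelihood method, 2-sided), in 1 fit of 6 group means with TMM scaling. The filter (minimum count 10, minimum total 15) kept 10566 genes. P-values were adjusted by Benjamini and Hochberg over those genes, with a threshold of 0.05, and the SE is the log2 fold change divided by the root of F. The fit was tested on simulated data. The members and the gene lists (steroid metabolism, NRF2 targets, androgen-induced genes and markers of the lines and of other cell types) were chosen with earlier results of these data known. All 10 enzymes and MED12 are named, each listed gene past the threshold after siMED12, NQO1, added after its values were seen, the 3 largest differences of each sign between siCtrl groups in the steroid metabolism list, and the 5 genes most like AKR1C3 and UGT2B15. The results of 1 other list are not reported here.

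Replicate numbers were checked as pairs by correlating deviations from group means over 6720 genes. In LNCaP the 3 correlations were 0.177, 0.132 and 0.135. In 22Rv1 they were 0.190 and 0.253, and in PC3 0.117 and 0.0787, with 2 pairs each. Correlations between libraries of unlike number were not computed, so these values do not show that the numbers pair the libraries in any line. Alternatives were the replicate block, relative log expression scaling, DESeq2 1.42.0, limma 3.58.1 on the log2 CPM, no filter beyond 1 count, subtraction of counts from other lines, and each library left out. Others (legacy and robust edgeR, and summed paralogs with and without the block) were chosen after seeing the data. Genes restricted to 1 line had at least 50 CPM in its siCtrl group and under 2 CPM in the siCtrl groups of the others (5 genes for LNCaP, 15 for 22Rv1 and 60 for PC3). Promoters come from RefSeq, in which 9 of 10 enzymes matched.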

Additional observations from a re-analysis of the deposited data

How the results depend on the processing

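The count of enzymes called after siMED12 in LNCaP was 0 as reported, 1 without the filter, 1 with the replicate block, and 0 to 1 with each replicate left out. The 1 gene was UGT2B15 (log2 fold change −0.82, edgeR adjusted p = 0.0251 without the filter). All genes called in LNCaP numbered 44 as reported, 95 without the filter, 29 each under robust edgeR, DESeq2 and limma, 117 with the replicate block and 12 to 55 with each replicate left out. In PC3 they numbered 0 as reported, 9 without the filter, 1 under limma, 20 with the replicate block and 0 to 3 with each replicate left out, and 0 enzymes were called under each. In 22Rv1, where libraries of 1 number correlated at 0.190 and 0.253, the block gave AKR1C3 a log2 fold change of 3.04. Beyond UGT2B15 the block changed no call of an enzyme.

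Left out in turn, the 22Rv1 libraries gave AKR1C3 log2 fold changes of 2.69 to 3.68, and limma gave 2.60. For UGT2B17 in 22Rv1 they gave −1.03 (without siMED12 replicate 3) to 1.38, and for UGT2B11 −0.076 (without siMED12 replicate 3) to 0.35. SRD5A1 in LNCaP, near 0, changed sign under 6 alternatives: −0.0071 without the filter, −0.019 with counts from other lines subtracted, −0.0088 under legacy edgeR, −0.024 under DESeq2, −0.0014 under limma and −0.0058 with the replicate block. With each replicate left out, signs also changed in LNCaP for SRD5A1 (−0.18 to 0.32), HSD17B4 (−0.14 to 0.035) and SRD5A3 (−0.14 to 0.12), and in PC3 for HSD17B4 (−0.066 to 0.32), HSD17B11 (−0.79 to 0.48) and SRD5A1 (−0.66 to 0.029). Depth limits the AKR1C genes outside 22Rv1 and the UGT2B genes in PC3, which had 0 to 3 counts per library. UGT2B11 fell under the filter in some fits with a library left out.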
